A study of Sparus aurata with 16 samples.

Results

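A set of 284 array sequences separated the livers of gilthead sea bream (*Sparus aurata*) fed diet LLH from those of fish fed diet HLL, out of 25225 sequences measured. A sequence entered the set when its mean liver signal differed by at least 0.8 on the log2 scale between both diets, when all 4 LLH fish lay on 1 side of all 4 HLL fish, and when it was well above background in all 8 fish. The members were therefore chosen by their LLH and HLL values in the liver, which are given below as a description with no test. Of the 284 sequences (1.13% of the array), 184 were higher and 100 were lower with LLH. Without the other conditions, the fish of both diets did not overlap for 2.45% of all sequences. Groups of 4 unrelated fish also separate for some sequences by chance. Neither this share nor the number of members was tested against that.

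Diet HLL was rich in protein and poor in lipids and carbohydrates, diet LLH was rich in carbohydrates and poor in protein and lipids, and diet MHL held much lipid, little carbohydrate and an intermediate amount of protein. Diets HLL, MHL and LLH were given to juvenile fish for 23 days, 25 g per kg of body weight daily, and a further group was starved over the same time. The arrays measured total RNA of liver and of white skeletal muscle from 4 fish per group and tissue, with fish of 2 groups on each of 16 two-colour arrays, and with 2 fish of a group in Cy5 and 2 in Cy3. All 8 liver arrays lay on 1 slide and all 8 muscle arrays on another, so slide and tissue cannot be told apart. The Cy5 fish of 1 liver array was called HLL in the sample title and LLH in the source name, and it was taken as HLL fish 1. Only this reading gives 4 liver fish in each group, with 2 in Cy5 and 2 in Cy3. Sea bream is a carnivorous fish whose liver draws heavily on amino acids for energy and for glucose synthesis, and diet LLH replaces part of the protein of HLL by carbohydrate. Alanine aminotransferase passes the amino group of alanine to 2-oxoglutarate and so links amino acid breakdown to pyruvate, while acetyl-CoA carboxylase 1 makes the malonyl-CoA used in fatty acid synthesis.

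The value x is the mean log2 signal of a sequence in 1 fish after the background subtraction and dye normalisation of the scanner software, and it was not scaled between arrays. All tests were run with limma on log2 intensities normalised within and between arrays. Between 57.9 and 66.6% of the spots of a liver channel were well above background, and the median x of a liver channel ran from 5.61 to 6.38. Over all sequences the median LLH minus HLL difference of x in the liver was 0.09. Differences in cell number and in RNA per cell cannot be told apart in such bulk tissue. The labels do not say that fish came from separate tanks, so P values measure the spread between these fish. Apart from 8 gene symbols, the identifiers carry no gene name, so the labelled tissues could be checked only against the pyruvate kinases PKL and PKM. PKL, the liver form, had group means of x of 9.87 to 10.67 in liver and 5.99 to 6.31 in muscle. PKM, the muscle form, was dim in both and hardly separated them, with 3.69 to 4.40 in liver and 4.45 to 4.66 in muscle.

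The LLH minus HLL difference of x had a median of 1.18 among the 184 sequences higher with LLH and of -1.25 among the 100 lower ones. It reached 2 or more in size for 28 higher and 22 lower sequences. The sequences nearest to the limit stood at 0.81 and -0.81 inside it and at 0.80 and -0.80 outside it. A further 653 sequences passed the limits on difference and background, but their fish overlapped, and 112 separated the diets without being well above background in all 8 fish. Of the 284 members, 279 had 2 probes, and both probes differed in the same direction in all 279. The rule used the mean of both probes in these fish, which favours such agreement. When both probes had to pass the rule, 138 members remained. The median differences within the fish of 1 dye were 1.17 (Cy5) and 1.20 (Cy3) for the higher sequences, and -1.36 and -1.05 for the lower ones. Their signs are fixed by the condition that the fish do not overlap.

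How many sequences fell on each side depended on the scaling between channels. With each channel centred on its median, 165 sequences were higher and 249 lower with LLH, and with quantile normalisation the numbers were 180 and 242. With normexp, Loess and Aquantile normalisation they were 108 and 138, and 160 of these 246 sequences belonged to the 284. With the doubtful channel taken as LLH, which makes the groups unequal in size, 155 were higher and 8 lower, and only 59 of the 284 remained. When LLH fish 1 was left out, 714 sequences separated the diets (637 higher and 77 lower), and without HLL fish 4 there were 517 (215 and 302). With 1 fish less, the conditions on overlap and background are easier to meet, so a larger number is not in itself a result. The majority of higher sequences thus holds for all fish and the signals as the scanner software gave them. It holds neither for the other scalings nor without HLL fish 4.

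The fish of 1 group differed among themselves. Among the lower sequences, the median distance from the HLL mean was -1.80 in LLH fish 1, against -0.94 to -1.18 in the other LLH fish. The channel of LLH fish 1 also had the lowest median x over all sequences, 5.61 against 6.16, 6.34 and 6.31 in LLH fish 2 to 4, and x is not scaled for this. Among the higher sequences the LLH fish ran from 0.93 (fish 1) to 1.39 (fish 3), while the MHL fish ran from 0.39 to 0.93 and the starved fish from 0.89 to 1.22. For 16 members the SD over the 4 LLH fish was 2 or more on the log2 scale. In starved fish this held for 9 members, in MHL fish for 8 and in HLL fish for 3. Members that move together each count here, and the share of all sequences was not counted. The median SD of the members was 0.42 in HLL, 0.52 in MHL, 0.42 in LLH and 0.50 in starved fish. For all sequences well above background in the 8 LLH and HLL livers it was 0.34, 0.34, 0.43 and 0.25.

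**Figure D1:**
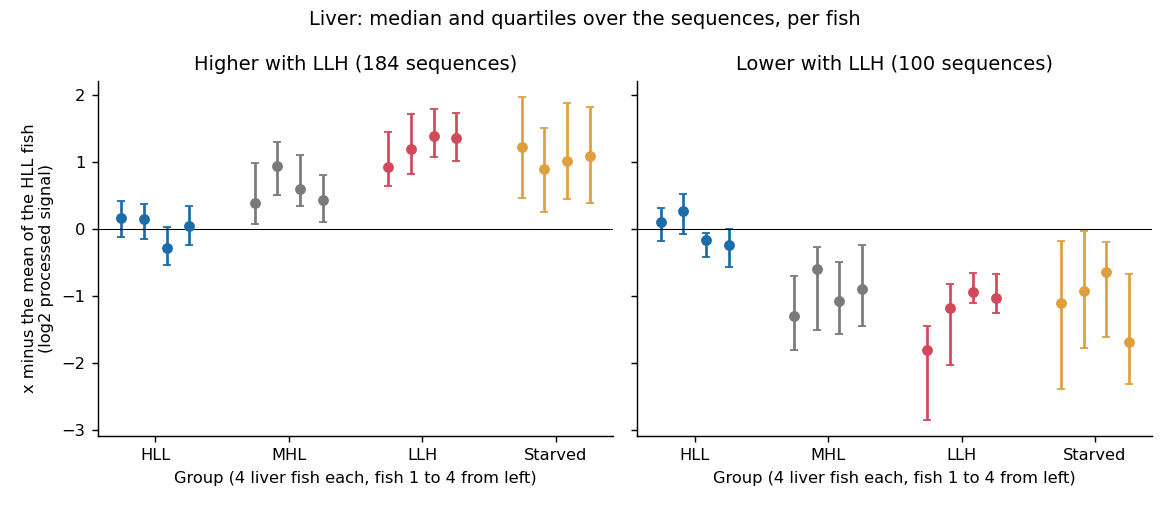
Median (point) and quartiles (bar) over the member sequences of x minus the mean of the HLL fish, in log2 units, for each of 16 liver fish. The HLL and LLH fish are apart because the members were chosen so; for the higher sequences the MHL medians lie between 0.39 and 0.93, and for the lower sequences LLH fish 1 is the lowest at -1.80.

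Of the members, 3 are listed by gene symbol, and all of them were lower with LLH. The first is ACC1tv2, transcript variant 2 of acetyl-CoA carboxylase 1. Its x in the liver was 6.28, 7.03, 6.04 and 7.51 in HLL fish 1 to 4, and 4.22, 5.91, 5.39 and 5.50 in LLH fish 1 to 4, a difference of -1.46. The MHL fish were lower than every HLL fish, with 4.33, 4.02, 3.97 and 4.27. Starved fish gave 3.17, 1.84, 2.90 and 3.11, and the sequence was not well above background on any starved liver array or on any muscle array. On the normalised scale the means of 4 fish each gave ACC1tv2 1.26-fold higher in MHL than in starved liver (limma, adjusted P = 0.0284). Its fitted log2 fold change of starved over MHL was -0.33, which became -0.92 with a normexp offset of 0 and -1.83 with processed signals. That call was lost when starved fish 1, 2 or 3 or MHL fish 1 or 3 was left out (adjusted P from 0.0620 to 0.0860). It was also lost when log ratios were fitted (log2 fold change -0.07, adjusted P = 0.803).

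The other 2 are cALT1 and cALT2, cytosolic alanine aminotransferases. Their x correlated with r = 0.9998 over the 32 fish and tissue samples, which share their arrays, and the files do not show whether their probes tell both transcripts apart, so they are described as 1 measurement. For cALT1, HLL fish 1 to 4 had 16.30, 16.68, 16.22 and 16, and LLH fish 1 to 4 had 14.99, 15.04, 15.91 and 15.94. The LLH values form 2 pairs, the higher of which lies just below the lowest HLL fish. MHL fish 2 reached 16.11, among the HLL fish, while the other MHL fish had 15.04, 15.14 and 15.10. Starved fish were lowest, with 14.02, 14.90, 15.17 and 14.82. On the normalised scale cALT1 was lower in starved than in MHL liver by a log2 fold change of -0.98 (SE 0.22, adjusted P = 0.0243) and cALT2 by -0.99 (SE 0.21, adjusted P = 0.0190; limma, n = 4 fish per group). Without starved fish 2 or 4 or MHL fish 1, 2 or 3 the adjusted P of cALT1 rose to between 0.0537 and 0.0819, and without starved fish 4 or MHL fish 1, 2 or 3 that of cALT2 rose to between 0.0515 and 0.0676.

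In the muscle, the mean x of cALT1 was 12.30 in HLL, 11.97 in MHL, 13.09 in LLH and 12.99 in starved fish. LLH minus HLL was 0.75 on the normalised scale (SE 0.27, adjusted P = 0.317) for cALT1 and 0.73 (SE 0.27, adjusted P = 0.323) for cALT2, so the muscle values did not pass the test.

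The remaining 5 sequences with a gene symbol were not members, because their LLH and HLL fish overlapped in the liver. ACC1tv1, the other variant of acetyl-CoA carboxylase 1, differed by -1.29 in mean x, from 4.39 with HLL to 3.10 with LLH. ACC2, which makes malonyl-CoA at mitochondria, differed by -0.38. PKL differed by 0.33, PKM, the muscle form of pyruvate kinase, by 0.32, and mALT, the mitochondrial alanine aminotransferase, by 0.07. The cytosolic alanine aminotransferases thus met the rule, at -0.83 (cALT1) and -0.86 (cALT2) near its limit of 0.8 in size, and mALT did not. This contrast was not tested.

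The other members carry assembly identifiers only. The 284 consist of 237 isotigs (assembled transcripts), 41 single reads, 3 contigs and the 3 gene symbols. The largest difference among the higher sequences was that of isotig00090. Its x was 6.06, 4.63, 3.62 and 8.33 in HLL fish 1 to 4, and 11.17, 13.16, 15.87 and 10.46 in LLH fish 1 to 4, a difference of 7.0. The MHL fish had 7.14, 9.45, 4.01 and 11.06. The starved fish fell into 2 pairs, with 7.09 and 6.20 in fish 1 and 2 and 16.36 and 14.19 in fish 3 and 4, so that starved fish lay both above and below all LLH fish. The second largest was isotig00081, with HLL fish at 6.73, 4.68, 6.45 and 8.01 and LLH fish at 10.40, 12.32, 15.00 and 8.90. Starved fish 3 and 4 were again high, at 15.51 and 13.60 against 8.95 and 8.59 in starved fish 1 and 2. The 2 probes of isotig00081 differed by 5.47 in their LLH minus HLL difference, although both were positive. Over the 16 liver fish, x of isotig00081 correlated with that of isotig00090 at r = 0.94, a description over fish of 4 groups on shared arrays.

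For neither sequence did starved and MHL liver differ beyond the spread of fish. The log2 fold change was 2.26 (SE 2.31, adjusted P = 0.586) for isotig00090 and 2.42 (SE 1.56, adjusted P = 0.363) for isotig00081 (limma, n = 4 per group). Leaving out 1 fish moved the former to between 0.17 (without starved fish 3) and 4.02 (without starved fish 2), and the latter to between 1.12 (without starved fish 3) and 3.46 (without starved fish 1). In the muscle isotig00090 was well above background in 2 of 4 HLL and 2 of 4 MHL fish and in no LLH or starved fish.

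Among the lower sequences the largest difference was that of isotig06565. Its x in the liver was 11.83, 10.15, 9.36 and 8.74 in HLL fish 1 to 4 and 5.11, 6.75, 5.41 and 6.18 in LLH fish 1 to 4, a difference of -4.16. The means of the MHL fish (8.51, 7.46, 8.77 and 7.62) and of the starved fish (7.38, 8.46, 8.27 and 8.94) lay between, and each of these fish was above every LLH fish. Starved and MHL liver differed by a log2 fold change of -0.25 (SE 0.38, adjusted P = 0.725), which turned to 0.024 without starved fish 1. The second was isotig06385, with HLL fish at 9.52, 9.94, 10.16 and 9.29 and LLH fish at 5.68, 5.88, 6.12 and 6.06, a difference of -3.79. Its MHL fish had 6.19, 7.80, 5.92 and 5.48, and its starved fish had 4.27, 4.58, 4.45 and 4.81, below every fed fish. Starved liver was lower than MHL liver in isotig06385 by a log2 fold change of -1.71 (SE 0.33, adjusted P = 0.0130), and by -3.32 (adjusted P = 0.00983) when its brightest probe alone was used.

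**Figure D2:**
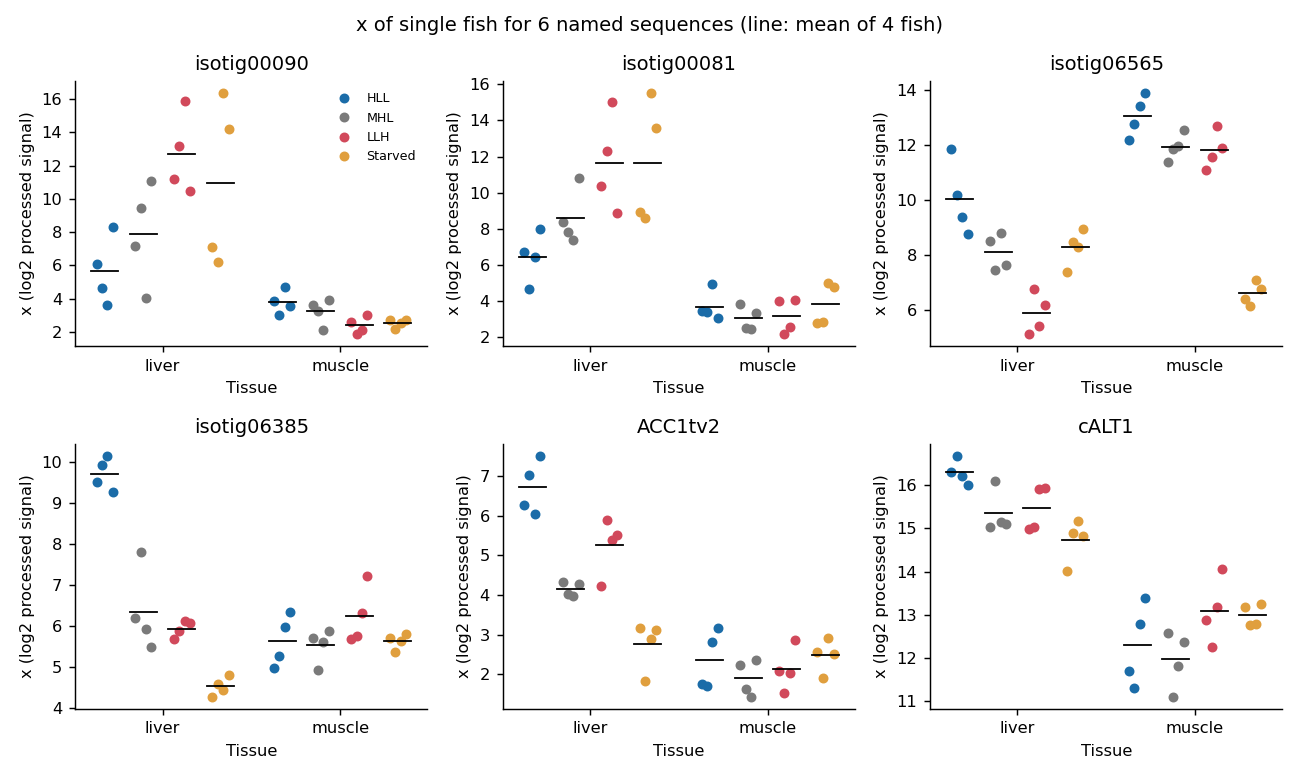
x (log2 processed signal) of each fish in liver and muscle for isotig00090, isotig00081, isotig06565, isotig06385, ACC1tv2 and cALT1, coloured by group, with the mean of 4 fish as a line. Starved fish 3 and 4 stand apart in isotig00090 (16.36 and 14.19), and isotig06565 is low in starved muscle.

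Several members had neighbouring identifier numbers. Taking isotigs at most 3 numbers apart, 74 members fell into 22 runs, so that the 284 members correspond to 232 units. Neighbouring isotigs can be variants of 1 gene or share sequence, and the files give no grouping, so members of a run are not independent. The largest run held 16 lower sequences (numbers 53 to 72), which differed by -2.75 to -2.65 and moved together over the liver fish with a median r of 0.9997. The mean x of the run was 13.15, 14.64, 13.36 and 12.55 in HLL fish 1 to 4 and 8.25, 9.92, 12.43 and 12.34 in LLH fish 1 to 4. LLH fish 1 and 2 were thus far below the HLL fish, while LLH fish 3 and 4 were just below the lowest of them. The MHL fish, at 14.14, 11.87, 14.50 and 13.60, and the starved fish, at 13.27, 14.35, 12.83 and 11.14, overlapped the HLL fish. None of the 16 was called between starved and MHL liver, with log2 fold changes from -1.10 to -0.98 and adjusted P from 0.438 to 0.490.

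A run of 6 higher sequences (numbers 507 to 514) had a mean x of 8.07, 7.97, 7.44 and 9.22 in HLL fish 1 to 4 and of 9.78, 10.10, 10.91 and 10.55 in LLH fish 1 to 4. The MHL fish stayed at 7.44 to 8.51, at the level of HLL, and the starved fish had 10.23, 8.56, 9.09 and 10.17. A run of 4 lower sequences (numbers 1535 to 1538) was bright, with a median x of 16.17 in HLL, 15.15 in LLH, 15.37 in MHL and 13.63 in starved liver. All 4 were lower in starved than in MHL liver, by log2 fold changes from -2.15 to -2.09 (adjusted P from 0.00406 to 0.00457), and lower in starved than in MHL muscle, by -3.02 to -2.81 (adjusted P from 1.33e-06 to 6.79e-06).

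The place of MHL and starved liver was expressed as a position, with 0 at the mean of HLL and 1 at the mean of LLH. These positions use the HLL and LLH fish that chose the members and are a description. They also rest on x, which is not scaled between channels. The liver channel medians of x ran from 5.63 to 6.16 in MHL and from 6.20 to 6.38 in starved fish. In HLL fish they ran from 5.75 to 6.21, and in LLH fish from 5.61 to 6.34. The part of these channel levels in the positions of higher and lower sequences was not tested. The MHL group had a median position of 0.48 among the higher sequences and of 0.84 among the lower ones. Its mean lay between HLL and LLH for 160 of the 184 higher sequences, beyond LLH for 12 and beyond HLL for 12. Of the 100 lower sequences, 50 were between, 33 beyond LLH and 17 beyond HLL. Thus in unscaled x the lower sequences were mostly near the LLH level in MHL fish. Those of the run of 16 were an exception, with a median MHL position of -0.04.

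The starved group had a median position of 0.87 among the higher and of 0.67 among the lower sequences. It lay between both diets for 83 higher sequences, beyond LLH for 78 and beyond HLL for 23. For the lower sequences the numbers were 59, 38 and 3. The quartiles of the starved position were 0.39 and 1.32 for the higher sequences, against 0.30 and 0.66 for MHL, so that single sequences were spread further in starved fish.

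Counted by fish, 45 of the 184 higher sequences had all 4 MHL fish above all 4 HLL fish, and 42 of the 100 lower ones had all MHL fish below. Over all sequences of the array the shares were 0.844% above and 2.14% below. All 4 starved fish were above all HLL fish for 92 higher sequences, and below for 47 lower ones, against 17% and 4.11% of all sequences. The members' counts share their HLL fish with the rule, so nothing is read from them.

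**Figure D3:**
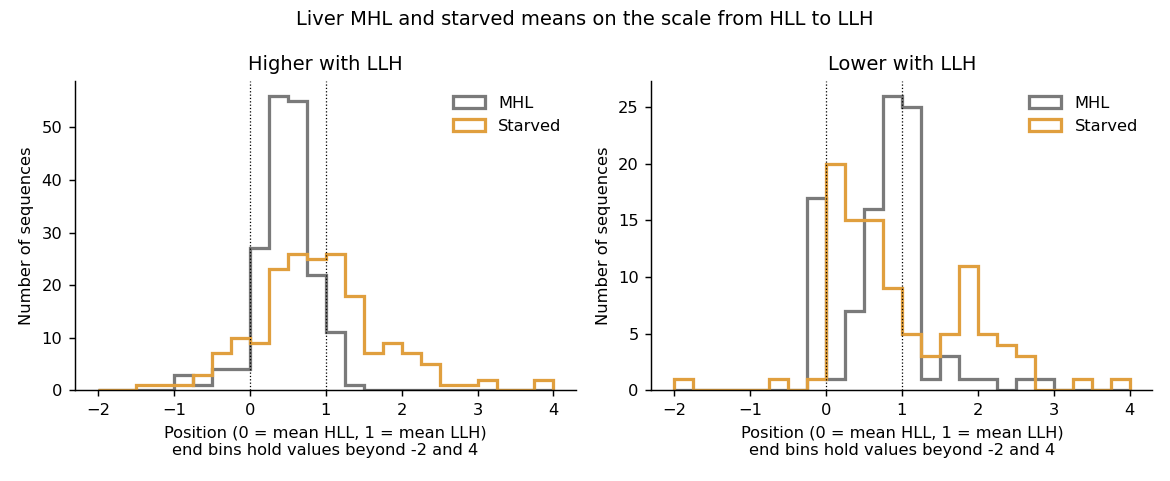
Number of member sequences by the position of the MHL and starved liver means, on a scale where 0 is the mean of HLL and 1 the mean of LLH (dotted lines). The MHL distribution of the higher sequences centres on 0.48 and that of the lower sequences on 0.84, and the starved distributions are wider.

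The comparison of starved with MHL liver used neither the LLH nor the HLL fish. Each starved and MHL channel nevertheless shared its array, and the normalisation within it, with an LLH or HLL fish that the rule used. All 284 members were tested, with no filter on dim sequences, and 95 passed the test (33.5%; limma, adjusted P under 0.05, 4 fish per group on 8 different arrays), against 20.4% of all sequences and 31.5% of the 15338 sequences well above background in the 8 LLH and HLL livers. The latter share is the nearer background, since members had to be well above background there. Of the higher sequences 36 rose (19.6%) and 25 fell (13.6%) in starved fish, against 15.8% and 15.7% of the sequences so detected (10.4% and 9.96% of all). Of the lower sequences 3 rose (3%) and 31 fell (31%). The median log2 fold change was 0.01 among the higher, -0.50 among the lower and -0.004 among all sequences. With the rule applied to quantile-normalised signals, 37 of its 242 lower sequences rose and 60 fell, with a median of -0.14, and 38 of its 180 higher sequences rose and 33 fell. The surplus of falling over rising sequences among those lower with LLH thus varied in size with the scaling used to choose them. Those higher with LLH were called in both directions.

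Counting each run as 1 unit, 3 of 76 lower units rose and 27 fell, and 34 of 156 higher units rose and 23 fell. The median over lower units was -0.33. Leaving out MHL fish 3 reduced the members called from 95 to 63. A fit of log ratios in place of separate channels gave 41 (1998 of all 25225 sequences), of which 15 higher sequences rose and 1 fell, while 2 lower sequences rose and 23 fell.

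In the muscle, starved and MHL fish differed for 102 of 284 members (35.9%), against 30.7% of all 25222 sequences tested (16.5% higher, 14.2% lower) and 41.7% of those detected in liver. Of the higher sequences 36 rose (19.6%) and 22 fell (12.0%), and of the lower ones 11 rose (11%) and 33 fell (33%). Of the sequences detected in liver, 22.3% rose and 19.4% fell. Without starved fish 3, 27 of the lower sequences rose and 30 fell. With all fish, and each run counted as 1 unit, 11 of 76 lower units rose and 26 fell. The run of 16 lower sequences was not called there, with log2 fold changes from 0.79 to 0.93 (limma, adjusted P from 0.214 to 0.318). Units were not counted without starved fish 3, so the part of this run in the rise to 27 was not tested. The difference itself was tested across both tissues, a test added after the data were seen. The fit took liver and muscle samples as separate fish. Both tissues may come from the same fish, and this pairing was neither checked nor modelled. Starved minus MHL differed between liver and muscle for 112 members (39.4%), against 29.7% of all sequences and 41.2% of those detected in liver.

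The clearest case was isotig06565. Its x in the muscle was 12.16 to 13.88 in HLL, 11.37 to 12.55 in MHL and 11.08 to 12.70 in LLH fish, and 6.14 to 7.07 in starved fish, with no overlap between starved and fed. The log2 fold change of starved over MHL was -5.14 in muscle (SE 0.22, adjusted P = 1.96e-08), and the liver change was the higher one by 4.96 (SE 0.44, adjusted P = 7.10e-06). For isotig06385 the muscle change was -0.61 (SE 0.10, adjusted P = 0.000574), and -1.19 when its brightest probe alone was used.

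**Figure D4:**
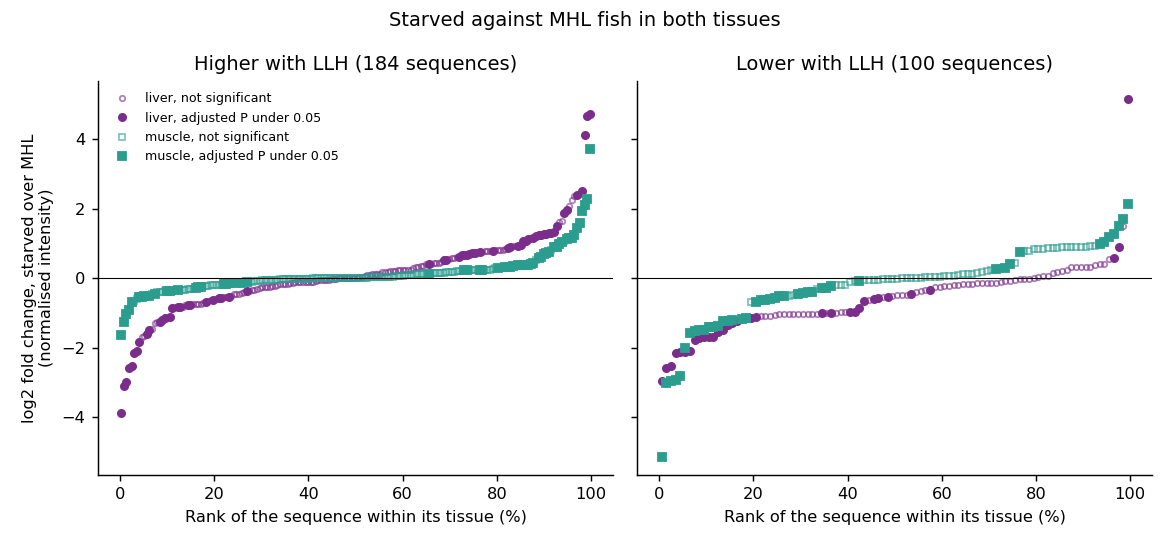
log2 fold change of starved over MHL fish (normalised intensity, n = 4 per group) for the 184 higher and 100 lower sequences, sorted within liver (circles) and muscle (squares), with filled symbols where the adjusted P value was under 0.05. In the liver 31 lower sequences fell and 3 rose.

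Whether the members also separated LLH from HLL in the muscle was tested on arrays the rule did not use. Of 284 members, 2 passed (0.704%; limma, adjusted P under 0.05, n = 4 fish per group). The shares were 0.238% of all sequences (60 of 25222) and 0.306% of those detected in liver. With 2 calls, nothing is read from this difference in shares. At an unadjusted P under 0.05 there were 55 of 284 members and 2951 of all 25222 sequences. The median log2 fold change of LLH over HLL in muscle was 0.04 for the higher and -0.08 for the lower sequences.

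Of the sequences that passed, isotig06565 was already named for its difference in the liver. It was lower with LLH in muscle, as in liver, with a muscle log2 fold change of -1.26 (SE 0.22, adjusted P = 0.0447). The other, isotig07346, was named because it passed, after its values were seen, and was higher with LLH in both tissues. Its muscle x was 8.43, 8.77, 9.77 and 10.00 in HLL fish 1 to 4 and 9.90, 9.50, 11.23 and 11.16 in LLH fish 1 to 4. The fish of both diets overlapped in x, and the normalised log2 fold change was 1.03 (SE 0.18, adjusted P = 0.0459). Neither call held when LLH fish 1 or 4 or any single HLL fish was left out, after which no member passed. Log ratios gave none, and without normalisation between arrays 54 members passed, beside 1396 of all 25222 sequences.

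The members were measured less evenly in muscle than in liver. A total of 109 higher sequences (59.2%) and 72 lower ones (72%) were well above background in all 16 muscle fish, against 82.8% of the sequences detected in the 8 livers. In 28 members no muscle fish was well above background. In MHL and starved fish, x was lower in muscle than in liver by a median of -2.46 for the higher and -1.35 for the lower sequences, against -0.22 for all detected sequences.

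Against this, 9 higher sequences and no lower one were at least 5 log2 units brighter in muscle than in liver. This limit was set after the values were seen. The share of all sequences that passed it was not counted, so nothing is read from the 9. The median x of the 9 in the liver was 4.72 to 5.36 in HLL and 6.13 to 7.64 in LLH fish, values the rule used. In starved fish it was 5.10 to 5.60. In MHL it was 5.88, 6.11 and 5.91 in fish 1 to 3 and 7.75 in fish 4. In muscle the same 9 had a median x of 17.20 to 19.10.

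The 200 sequences most biased to muscle were taken from the MHL and starved fish and hold 4 members, all higher with LLH. The 200 most biased to liver, taken likewise, hold 2 members, also higher with LLH. In the liver the LLH mean exceeded the HLL mean for 180 of the 200 muscle-biased sequences. The share of all sequences with a higher LLH mean was not counted, and neither was that of sequences equally dim in liver. The median difference of the 200 was 0.53 in unscaled x, against 0.09 over all sequences, bright ones included. Their median x in the liver ran from 2.53 to 3.03 in HLL, from 3.15 to 4.04 in LLH and from 2.71 to 2.91 in starved fish, and in MHL from 2.76 to 2.93 in fish 1 to 3 and 4.38 in fish 4. Of the 200, 54 to 72 were well above background in HLL and 56 to 106 in LLH livers. The part of these muscle sequences in the LLH minus HLL differences was not tested. Without LLH fish 3, the highest of its group, 347 sequences separated the diets, 182 higher and 165 lower with LLH. Without MHL fish 4, 92 members were called between starved and MHL liver. Neither number measures the part of the muscle sequences, and leaving out a fish makes the rule easier to pass.

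**Figure D5:**
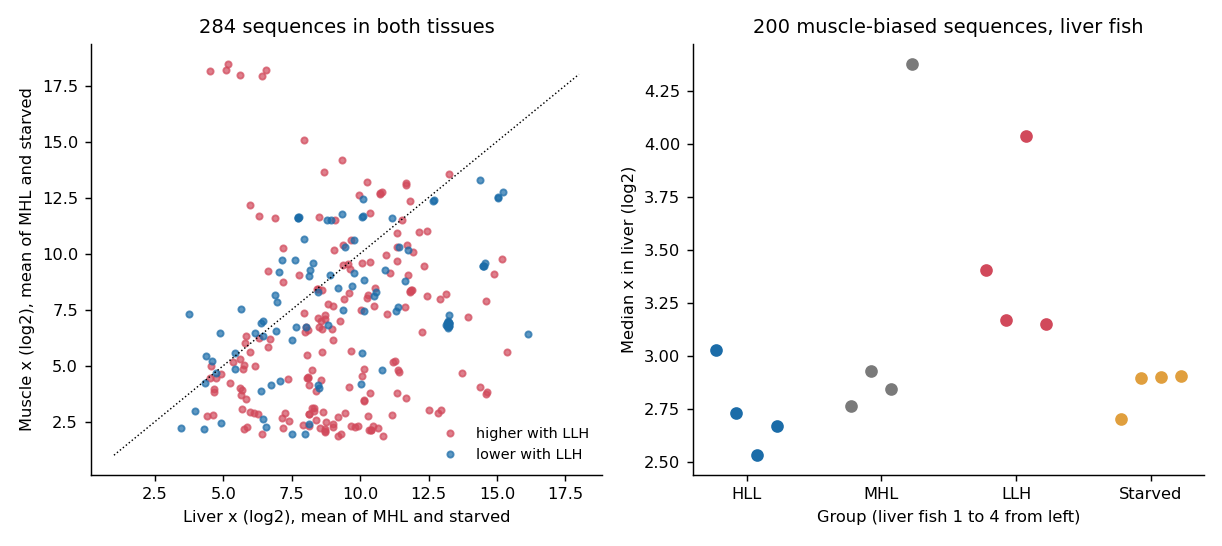
Left, x in muscle against x in liver for the 284 members, each the mean of the MHL and starved groups in log2 units, with the line of equality. Right, the median liver x of the 200 most muscle-biased sequences in each of 16 fish, which is highest in MHL fish 4 (4.38) and LLH fish 3 (4.04).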

How the data were processed

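Per the labels and the paper's methods, the authors hybridised total RNA of liver and white skeletal muscle from 4 fish per group on 16 two-colour arrays and scanned them with Agilent Feature Extraction (version 10.7). For each spot the authors deposited median intensity of signal and local background, processed intensity (background-subtracted and dye-normalised), log10 ratios of Cy5 over Cy3 and quality flags. They also deposited normalised log2 ratios, whose rows run in reverse feature order. The annotation of the array identifiers is not used here. An array has 62976 features (1319 of them controls), with 49373 probes for 25225 sequences. Saturation was not met, and precision is limited by the number of arrays.

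The value x is the mean log2 processed intensity over the spots of a sequence and channel. For the tests, median intensities were corrected by normexp (offset 50), normalised by Loess within and Aquantile between arrays, and averaged over the probes of a sequence, with outlier spots left out. Limma 3.58.1 in R 4.3.3 was fitted to separate channels with the dye as covariate, in the liver over the 8 starved and MHL channels, in the muscle over all 16 channels with the array as random block (intraspot correlation 0.16). The offset shrinks fold changes of dim sequences. P values were two-sided and adjusted by Benjamini-Hochberg over all sequences, with a threshold of 0.05. The test of the difference between tissues was added later. For a sequence that no fish of a group showed well above background, a lower bound of the fold was sought from the dimmest detected signals. For ACC1tv2 it equalled the fold of the measured means. The fits were tested on simulated data.

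The members and the gene lists were chosen with earlier results of these data known. Named were all members with a gene symbol and, of the others, the 2 with the largest difference in each direction; planned lists of pathways and cell markers could not be used for lack of gene names. The alternatives covered the doubtful label, scaling, background, dye, filters, probes, log ratios, the authors' values, replicate numbers and single fish.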

Additional observations from a re-analysis of the deposited data

Results flagged for a closer look

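Over 56 groups of 4 fish (7 named sequences, 4 groups and 2 tissues), the values of 2 held a fish far from the other 3, about as many as chance gives when 1 in 20 groups is singled out in this way. Both were MHL fish 2 in the liver, with an x of 16.11 for cALT1 against 15.04 to 15.14 in the other MHL fish, and of 16.06 for cALT2 against 15.02 to 15.14, so they are the same observation.

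The change from MHL to starved fish differed between liver and muscle for 112 of 284 members (39.4%; limma, adjusted P under 0.05). The shares were 29.7% of all sequences and 41.2% of those detected in liver, so the members did not exceed the latter. This fit took liver and muscle samples as separate fish, although both tissues may come from the same fish. Among the named sequences, the log2 change of the liver exceeded that of the muscle by 4.96 in isotig06565 (-0.25 against -5.14, adjusted P = 7.10e-06). It was below that of the muscle by -1.09 in isotig06385 (-1.71 against -0.61, adjusted P = 0.0423).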

How the results depend on the processing

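The number of members, 284, moved to 163 with the doubtful channel taken as LLH and to 138 when both probes had to pass. Leaving out 1 fish, which makes the rule easier to pass, gave 337 to 714. Members called between starved and MHL liver, 95, numbered 37 of 163 with the doubtful channel taken as LLH in the rule. They numbered 168 of 422 with the rule on quantile-normalised signals. Log ratios gave 41 members and 1998 of all 25225 sequences, and the authors' log2 ratios gave 52 members and 2169 of all 25225. Leaving out 1 fish gave 63 to 92. Members called between LLH and HLL muscle, 2, numbered 0 with the doubtful channel taken as LLH, with only the 8 channels of the groups, with log ratios and with the authors' ratios. They numbered 1 with processed signals, with median centring and with the brightest probe, and 4 of 422 with the rule on quantile-normalised signals. With no normalisation between arrays they numbered 54, beside 1396 of all 25222 sequences, and 0 to 2 when 1 fish was left out. Members called between starved and MHL muscle, 102, numbered 49 of 163 with the doubtful channel taken as LLH. They numbered 163 of 422 with the rule on quantile-normalised signals, and 92 to 106 when 1 fish was left out. Log ratios gave 49 members and 3560 of all 25222 sequences, and the authors' ratios gave 51 members and 4013 of all 25225. Under the alternatives not named here the counts stayed within 1.5 times. The causes were not tested; a longer or shorter list of members gives more or fewer calls by construction. The median positions of MHL (0.57) and starved liver (0.81) over all members stayed at 0.51 to 0.66 and 0.80 to 0.88.

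Samples with the same fish number were compared between groups within a tissue, and r ran from -0.20 to 0.42 in muscle and from -0.22 to 0.01 in liver. Only 2 of 12 numbers correlated best with themselves, numbers 1 and 2 of LLH with HLL muscle (r = 0.42 and 0.23). The numbers were therefore not taken to pair the groups. Liver and muscle samples of the same number were not compared. With fish number as a replicate block, 82 members were called between starved and MHL liver, beside 4230 of all 25225 sequences. Between LLH and HLL muscle 11 members were called, beside 436 of all 25222 sequences. Between starved and MHL muscle 112 members were called, beside 8105 of all 25222.

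Among the named sequences, the liver change of isotig06565 between MHL and starved turned from -0.25 to 0.024 (adjusted P = 0.977) without starved fish 1, and leaving out 1 fish gave -0.51 to 0.024. Its muscle difference between LLH and HLL kept its direction under 21 alternatives, at -1.44 to -1.11, and passed the test under 6 of them. ACC1tv2 kept its direction under 21 alternatives and lost its call under 8. Dim sequences were limited by background, since 2 members were not well above it in any starved liver.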
